A study of Mus musculus with 6 samples.

Results

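The replication-dependent histone genes encode the H1, H2A, H2B, H3 and H4 proteins that package newly copied DNA. H3K27ac, the acetylation of lysine 27 on histone H3 that marks active promoters and enhancers, was followed over these genes in bone marrow hematopoietic stem cells of mice. Members were the protein-coding genes of the RefSeq GRCm38 table whose current symbol, or older Hist1h, Hist2h or Hist3h name, places them in one of the 5 families. This gave 66 of 21883 protein-coding genes on the main chromosomes, 63 by current symbol and 3 by older name alone (H2bu2, H2aw and the gene the table lists as H4bc24, formerly Hist1h2br, an H2B gene). They comprised 6 H1, 18 H2A, 18 H2B, 12 H3 and 12 H4 genes.

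The study used CUT&RUN: a nuclease, brought to the mark by an antibody, cuts out the DNA fragments that are then sequenced. There were 3 libraries from Ppp2ca knockout mice and 3 from wild-type mice. Ppp2ca encodes a catalytic subunit of the serine/threonine phosphatase PP2A. The series text gives 3 mice a group; libraries were treated as 1 mouse each, which no label states. The labels do not state the allele, any Cre driver, the age, the sex or the strain.

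Replication-dependent histone genes are short, mostly without introns, and are transcribed chiefly in S phase. Their mRNAs end in a stem-loop, bound by the protein SLBP, in place of a poly(A) tail. They sit close together in clusters, where the coactivator NPAT gathers in a nuclear structure called the histone locus body. Here they formed 4 clusters, with 23 and 31 genes in the first and second cluster of chromosome 13, 10 on chromosome 3 and 2 on chromosome 11. The first cluster of chromosome 13 ran over chr13:21715711-22043658 and the second over chr13:23531044-23934913.

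The promoters differ by family, and 61 members had an entry in the RefSeq promoter table of GRCm38.p6 (250 bases before to 50 after the start). Motifs were searched on both strands of these 300 bases. CCAAT, the letters of the CCAAT box, occurred in 53 of 61 member promoters (86.9%), against 39.0% of 17491 genes' promoters. It occurred in all entries of H1, H2A, H2B and H3 and in 3 of 11 of H4. TATAAA, the TATA box, occurred in 57.4% of member promoters, against 13.3% of all. GGTCCG, the core of the H4 site II element, occurred in 10 of 11 H4 promoters, against 10.6% of all. AAACACA, the H1 box, occurred in 5 of 6 H1 promoters, against 6.13% of all. TTTGCAT, the octamer core, occurred in 7 of 18 H2A and 6 of 16 H2B promoters, against 4.16% of all; windows of divergent H2A and H2B genes overlap and share some of these matches. A match describes the letters only.

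Promoters of 5 members to which the results return are shown 5′ to 3′ on the gene's own strand, with all motif matches in capitals. H2ac20 and H1f2 were marked in every library, H4c3 and H1f6 are neighbours whose calls differed, and H2ac1 had no peak in any library.
H2ac20: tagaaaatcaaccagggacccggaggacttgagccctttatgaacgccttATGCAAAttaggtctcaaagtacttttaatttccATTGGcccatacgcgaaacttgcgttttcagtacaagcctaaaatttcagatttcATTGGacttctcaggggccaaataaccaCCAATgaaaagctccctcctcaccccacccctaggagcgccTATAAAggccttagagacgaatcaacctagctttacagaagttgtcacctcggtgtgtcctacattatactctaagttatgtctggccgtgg
H1f2: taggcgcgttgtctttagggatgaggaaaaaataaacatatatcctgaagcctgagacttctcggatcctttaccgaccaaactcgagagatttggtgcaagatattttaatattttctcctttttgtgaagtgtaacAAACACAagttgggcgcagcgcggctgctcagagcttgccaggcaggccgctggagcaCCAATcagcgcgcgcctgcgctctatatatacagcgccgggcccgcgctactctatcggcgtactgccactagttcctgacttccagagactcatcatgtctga
H4c3: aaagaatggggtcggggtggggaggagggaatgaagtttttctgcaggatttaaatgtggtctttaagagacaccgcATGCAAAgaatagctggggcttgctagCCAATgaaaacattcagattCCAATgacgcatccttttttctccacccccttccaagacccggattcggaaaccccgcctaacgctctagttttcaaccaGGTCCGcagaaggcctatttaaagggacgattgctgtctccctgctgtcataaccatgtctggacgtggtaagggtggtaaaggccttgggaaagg
H1f6: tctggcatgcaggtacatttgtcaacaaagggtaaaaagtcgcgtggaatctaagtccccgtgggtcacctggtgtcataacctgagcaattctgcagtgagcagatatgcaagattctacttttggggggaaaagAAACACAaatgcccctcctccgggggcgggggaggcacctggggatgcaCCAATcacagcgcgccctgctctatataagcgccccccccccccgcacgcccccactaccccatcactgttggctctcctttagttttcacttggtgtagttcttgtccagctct
H2ac1: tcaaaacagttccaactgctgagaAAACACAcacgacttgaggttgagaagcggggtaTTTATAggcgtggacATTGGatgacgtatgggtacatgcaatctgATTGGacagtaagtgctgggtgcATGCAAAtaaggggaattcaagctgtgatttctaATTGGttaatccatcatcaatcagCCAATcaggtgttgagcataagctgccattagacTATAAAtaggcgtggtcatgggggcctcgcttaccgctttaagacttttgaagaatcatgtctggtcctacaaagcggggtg
The H2ac20 window is chr3:96220831-96221130 on the minus strand, and that of H4c3 is chr13:23698409-23698708 on the minus strand. The plus-strand windows are chr13:23738557-23738856 for H1f2, chr13:23695561-23695860 for H1f6 and chr13:23934187-23934486 for H2ac1. In capitals, H2ac20 holds an octamer core, 3 CCAAT matches and a TATA box. H1f2 and H1f6 each hold an H1 box and a CCAAT match. H4c3 holds an octamer core, 2 CCAAT matches and the H4 site II core. H2ac1, the testis H2A gene, holds an H1 box, 2 TATA matches, 4 CCAAT matches and an octamer core.

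Each deposited file lists the peaks of 1 library, called by the authors with MACS2, and holds no reads. The lists held 50453, 34016 and 35629 peaks in knockout libraries 1 to 3 and 22066, 29945 and 21917 peaks in wild-type libraries 1 to 3. Peaks covered 2.36 times as many base pairs of the main chromosomes in knockout as in wild-type libraries. The genome-wide background, a proxy for usable depth solved from the peaks' fold and p-value, was 0.465 to 0.827 fragments per 200 bp in knockout and 0.498 to 0.584 in wild-type libraries. Knockout library 2 had the lowest background of the 6. Ppp2ca itself was marked at its gene ends in all 6 libraries, which does not check the deletion. The stem cell marker list gave 4, 2 and 2 marked genes in knockout libraries and 3, 3 and 3 in wild-type libraries, so the groups overlapped. Runx1 and Tal1 were marked in all 6 libraries, and Cd34, Slamf1, Hlf, Mecom, Gata2 and Erg had no peak in any. Kit had a peak in 1 knockout library and in 2 of wild type, Procr in 1 knockout and 0 wild-type libraries, and Meis1 in 0 knockout libraries and 1 wild-type library. Markers of other blood cells were marked in 3, 3 and 3 of 4 erythroid genes in knockout against 2, 3 and 2 in wild-type libraries, and in 0 to 2 of 4 genes for myeloid, B and T cells in every library. Their part in the results was not tested.

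With all listed peaks counted, most histone genes had an H3K27ac peak in each library of both genotypes, and more of them did so in knockout libraries. Marked genes were those with a peak that reached within 1000 bp of the gene's start or of its other end, by at least 1 bp. Marked members numbered 63, 60 and 59 of 66 in knockout libraries 1 to 3, against 44, 51 and 43 in wild-type libraries 1 to 3. The groups did not overlap, with a mean of 60.7 ± 2.08 in knockout and 46.0 ± 4.36 in wild type (SD, n = 3 each), or 91.9% and 69.7% of members. Among all protein-coding genes the shares were 42.0% in knockout and 27.5% in wild-type libraries. Over all genes too, every wild-type library marked fewer than every knockout library.

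**Figure D1:**
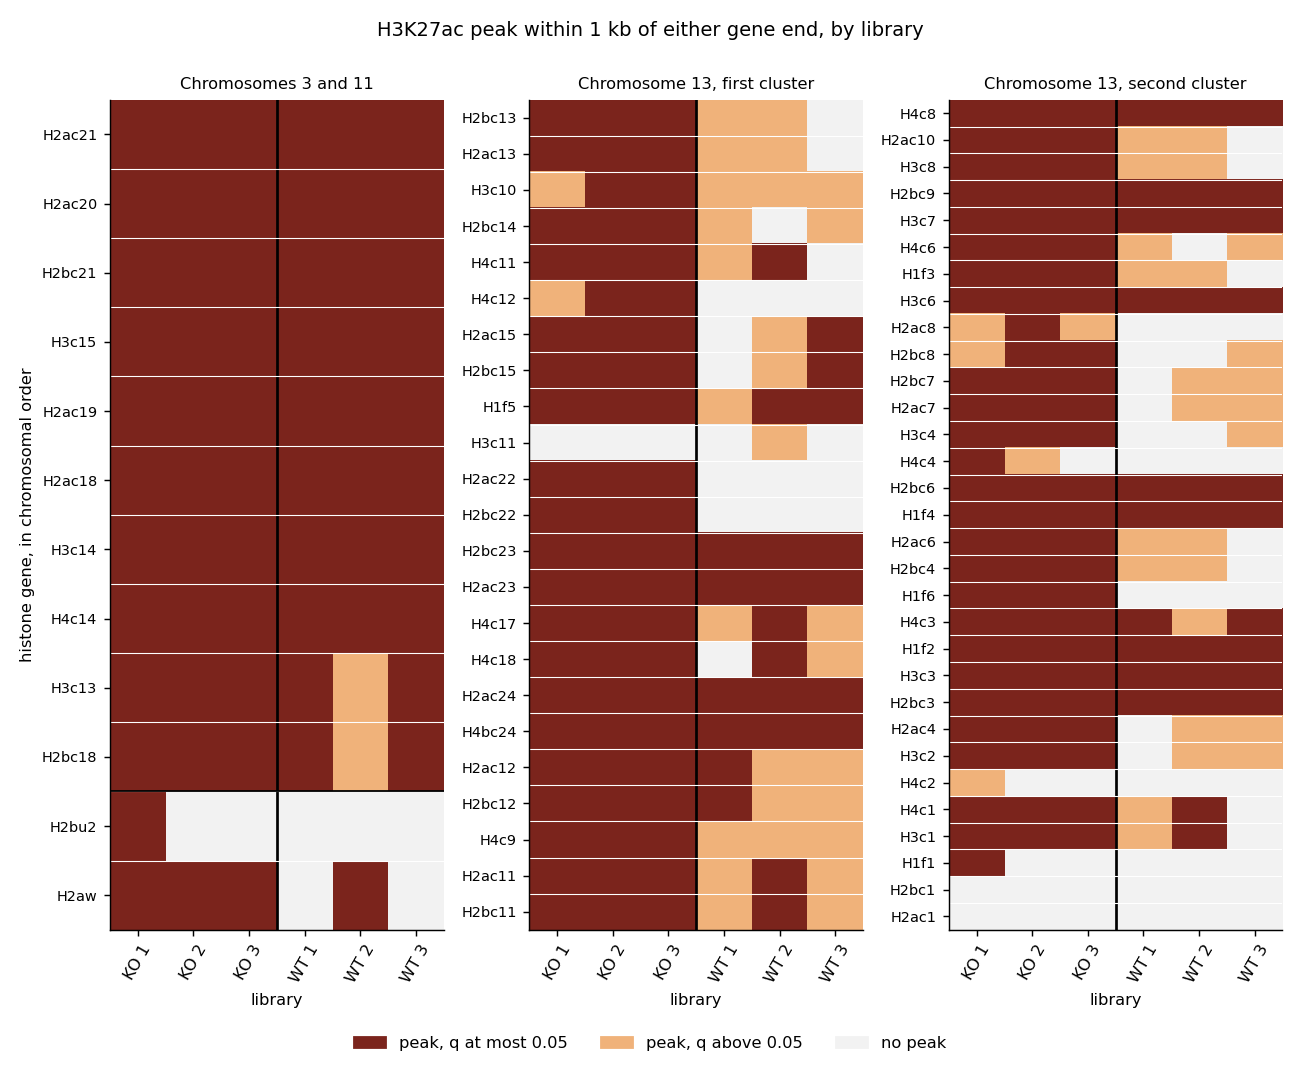
Each row is 1 of the 66 histone genes in chromosomal order within its cluster and each column 1 library (knockout, KO, left of wild type, WT); dark cells hold a peak at q of 0.05 or less, light cells a weaker peak, and grey cells no peak. All 10 genes of chromosome 3 are filled in every library, while on chromosome 13 many wild-type cells are light or grey and H2bc1 and H2ac1 are grey throughout.

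Of the 66 members, 32 were marked in all 6 libraries, 5 in the 3 knockout libraries and no other (knockout-only), 0 in the 3 wild-type libraries and no other, and 2 in none. The remaining 27 were marked in some libraries. Across all protein-coding genes, 17.0% were marked in all 6 libraries, 4.10% in the knockout alone and 0.00914% in the wild type alone. Of the 64 members marked in any library, 7.81% were knockout-only, beside 8.10% of the 11084 protein-coding genes marked in any library. Over all 66 members the knockout-only share was 7.58%. These shares moved with the settings. Among genes marked in any library, members and all genes stood at 10.6% and 24.8% with −log10 q-values of at least 5, at 6.45% and 11.6% with a 200 bp window, and at 0% and 5.83% with a 5 kb window.

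Counting only peaks at q of 0.05 or less, the caller's adjusted p, widened the gap. Marked members then numbered 58, 59 and 58 in knockout libraries (88.4%) and 26, 30 and 27 in wild-type libraries (41.9%). For all protein-coding genes the shares were 36.5% in knockout and 10.7% in wild-type libraries. At this threshold 21 members were marked in all 6 libraries and 18 in the knockout alone, which for all genes was 12.4%. Among genes marked at this threshold in any library the knockout-only share was 29.0% for the members and 29.0% for all genes.

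The length covered at gene ends separated the genotypes at most members. The groups did not overlap, with every knockout library above every wild-type library, at 52 of the 64 members marked in any library (81.2%), beside 50.6% of all genes marked in any. No member had every knockout library below every wild-type library, which held for 0.0361% of all genes. The median length covered per member was 1203, 1060 and 1330 bp in knockout libraries 1 to 3 and 412, 560 and 446 bp in wild-type libraries 1 to 3. Over the main chromosomes too, peaks covered 2.36 times as many base pairs in knockout as in wild-type libraries. The part of library depth or of signal over background in the longer cover was not tested. A larger share of cells carrying the mark and more of the mark per cell cannot be told apart in bulk samples either.

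In each of the 5 families the mean count of marked genes was higher in knockout than in wild-type libraries. The same held over all protein-coding genes, at 42.0% and 27.5%. H1 genes, which encode the linker histones, were marked in 6, 5 and 5 of 6 genes in knockout libraries and 4, 4 and 3 in wild-type libraries. H2A genes were marked in 17 of 18 in each knockout library and in 11, 15 and 11 in wild-type libraries. The H2B genes gave 17, 16 and 16 of 18 in knockout and 12, 13 and 13 in wild-type libraries. For the H3 genes the counts were 11 of 12 in each knockout library, against 9, 11 and 9 in wild type, so wild-type library 2 equalled the knockout. For the H4 genes they were 12, 11 and 10 of 12, against 8, 8 and 7. H3 had the highest wild-type share (80.6%) and H1 the lowest (61.1%); differences between families were not tested.

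By cluster, chromosome 3 stood at full marking in both genotypes. All 10 of its genes were marked in each of the 6 libraries, and at a q-value of at most 0.05 the counts were 10, 10 and 10 in knockout and 10, 8 and 10 in wild-type libraries. In the first cluster of chromosome 13, 22 of 23 genes were marked in each knockout library, against 16, 19 and 16 in wild type. The second cluster of chromosome 13 gave 29, 27 and 26 of 31 in knockout and 18, 21 and 17 in wild-type libraries. At a q-value of at most 0.05 the wild-type means were 7.67 ± 2.08 of 23 and 10.3 ± 0.577 of 31, against knockout means of 21.3 ± 1.15 and 25.7 ± 0.577 (SD, n = 3 each). On chromosome 11, where only H2aw and H2bu2 lie, 2, 1 and 1 genes were marked in knockout and 0, 1 and 0 in wild-type libraries.

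Base pairs covered by peaks within each cluster (with 1 kb beyond its outer genes) were also more numerous in knockout libraries. On chromosome 3 they came to 9500, 9068 and 11210 in knockout libraries 1 to 3 and 5053, 6140 and 5137 in wild-type libraries 1 to 3, a ratio of means of 1.82. The first cluster of chromosome 13 had 28229, 21387 and 30860 in knockout and 8597, 10821 and 9787 in wild type, a ratio of 2.76. Its second cluster had 31131, 22078 and 30172 in knockout and 10231, 15552 and 9982 in wild type, a ratio of 2.33. On chromosome 11 the values were 1449, 998 and 1001 in knockout and 0, 326 and 0 in wild type.

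In all 4 clusters every knockout library lay above every wild-type library in covered base pairs. A two-sided exact permutation test, which has 20 ways to assign the libraries, gave p = 0.1 for each cluster, the smallest value it allows with 3 against 3, so no difference could pass 0.05. The 4 clusters together had 2.41 times as many covered base pairs in knockout as in wild-type libraries, beside 2.36 times for the main chromosomes. They made up 0.351% ± 0.0358 of all base pairs covered in the same library in knockout and 0.339% ± 0.00861 in wild type, with n = 3 each and SD given (p = 0.6 by the same exact permutation test). For the 4 clusters together the difference was smaller than the spread between knockout libraries. Chromosome 3 turned round by this measure, with 419, 624 and 574 bp per Mb of covered bases in knockout libraries 1 to 3 and 697, 642 and 712 in wild-type libraries 1 to 3, a ratio of means of 0.788 (exact permutation p = 0.1). The ratio was 1.17 for the first cluster of chromosome 13 (exact permutation p = 0.2) and 5.39 for chromosome 11 (exact permutation p = 0.1). The second cluster of chromosome 13 had 1479 ± 93.1 bp per Mb in knockout and 1474 ± 133 in wild type (SD, n = 3; exact permutation p = 1).

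**Figure D2:**
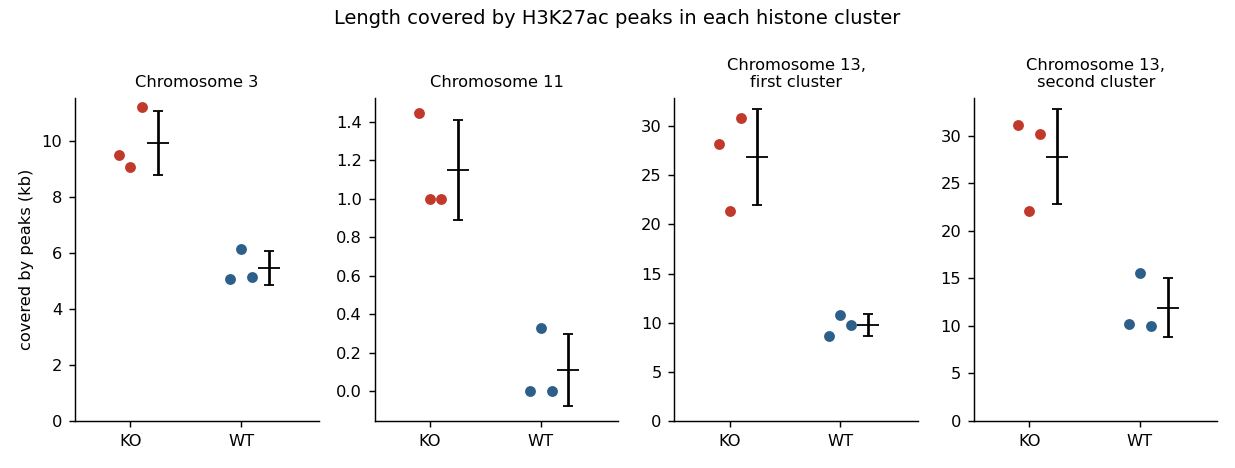
Points are the kilobases covered by H3K27ac peaks in each cluster by library, knockout (KO, red) left of wild type (WT, blue); the horizontal tick and bars are the mean ± SD of 3 libraries, and the vertical scale differs by panel. Knockout points lie above wild-type points in all 4 panels, with ratios of means of 1.82 on chromosome 3, 2.76 in the first cluster of chromosome 13 and 2.33 in its second.

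Merging overlapping peaks of all 6 libraries gave 105 domains over the 4 clusters. Of these, 21 had a peak in all 6 libraries, 6 in the 3 knockout libraries alone and 0 in the 3 wild-type libraries alone. Another 43 came from 1 library, 33 of them knockout. The 21 shared domains had a median width of 2170 bp, and 17 of them held a histone gene end. In 18 of the 21 every knockout library covered more of the domain than every wild-type library. No share over the merged domains of the whole genome is given beside these counts. They are therefore not read as particular to the histone clusters. Over the main chromosomes, peaks covered 2.36 times as many base pairs in knockout as in wild-type libraries. The widest domain of the clusters, chr13:21831618-21835272 with 3655 bp, joined H4c18, H2ac24 and H4bc24. It was covered by 2505, 2907 and 3577 bp of peaks in knockout libraries 1 to 3 and 980, 1862 and 1167 bp in wild-type libraries 1 to 3.

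**Figure D3:**
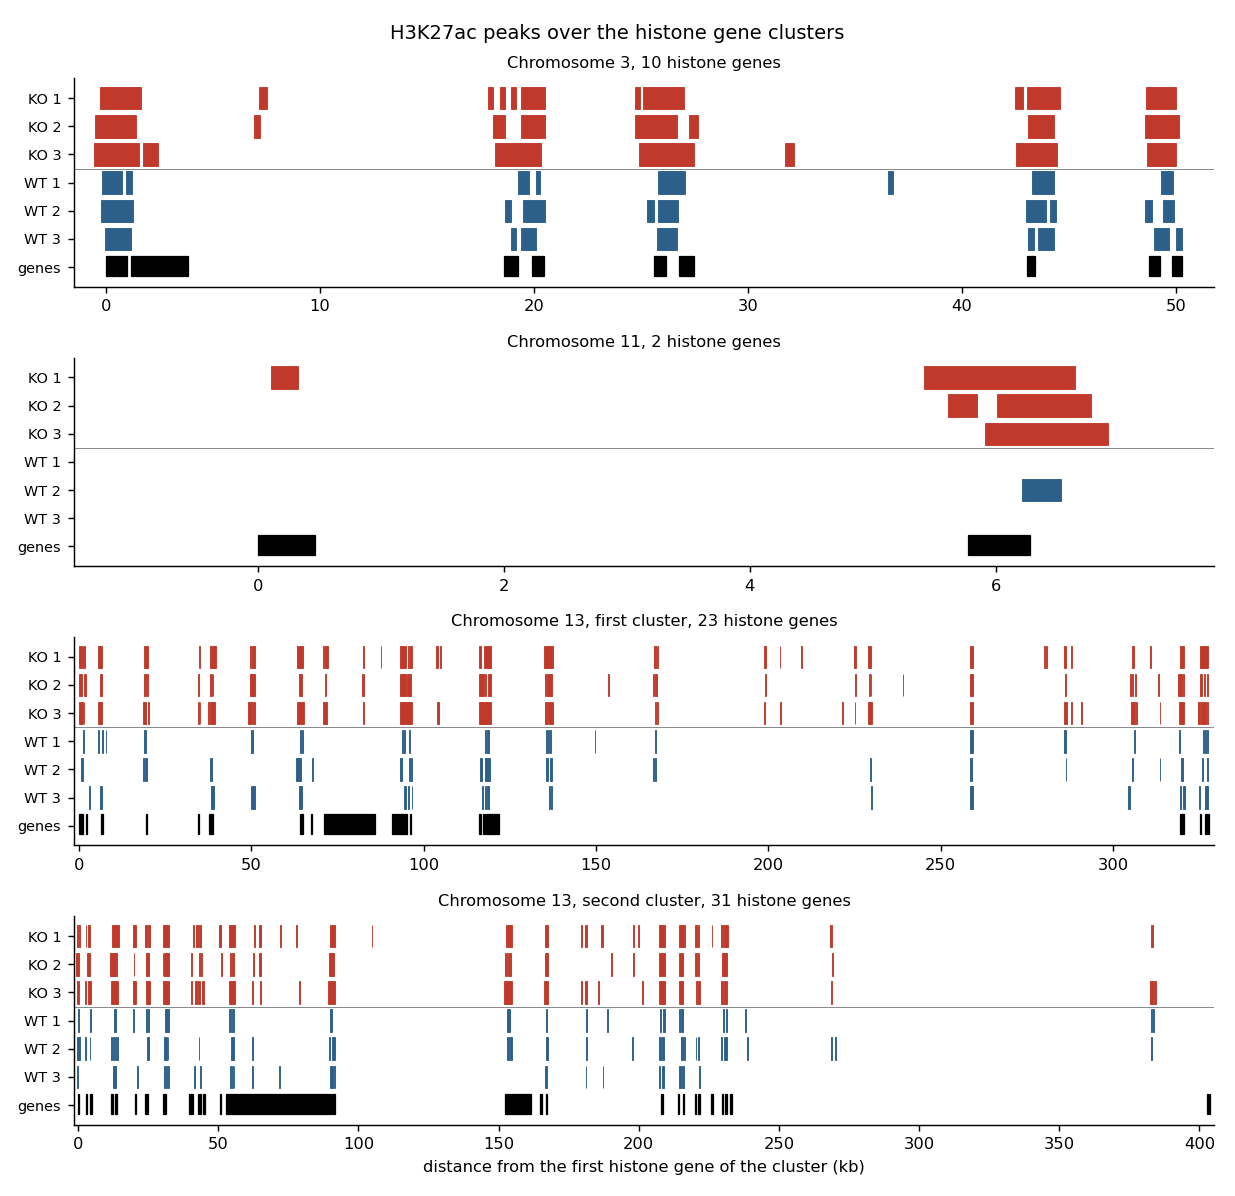
Boxes are H3K27ac peaks of each library over the 4 clusters, knockout (KO, red) above wild type (WT, blue), with histone genes in black; the horizontal axis is the distance in kb from the first histone gene of the cluster, on a scale that differs by panel. Of the merged blocks 21 recur in all 6 libraries, and in 18 of them the knockout peaks cover more. Over the main chromosomes knockout peaks cover 2.36 times as many base pairs as wild-type peaks. The pair at the right end of the second chromosome 13 cluster, H2bc1 and H2ac1, has no peak over it.

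Histone genes often share a promoter, so neighbouring calls are not independent. Windows of the 66 members merged into 35 loci, of which 33, 31 and 31 were marked in knockout libraries and 25, 28 and 23 in wild-type libraries. Of the 35 loci, 18 were marked in all 6 libraries and 2 were knockout-only, that of H4c12 and that of H2ac22 and H2bc22. No share over loci of all genes is given. All 10 divergent pairs with starts within 500 bp were an H2A and an H2B gene, with 164 to 281 bp between their starts. In 9 of the 10 both genes had the same call in every library, among them H2bc1 and H2ac1, which had no peak. The exception was H2ac8 and H2bc8, of which H2bc8 was also marked in wild-type library 3. Windows of such pairs overlap, so a peak near the starts marks both genes, and equal calls largely follow from the rule.

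Peak cover was highest near the annotated starts. The start lay under a peak at 71.6% ± 5.76 of the 61 members with a known start in knockout libraries and at 31.1% ± 9.13 in wild-type libraries (SD, n = 3 each). At 1000 bp upstream the shares were 36.1% ± 3.28 in knockout and 14.8% ± 3.28 in wild type, and at 1000 bp downstream 32.8% ± 1.64 in knockout and 16.4% ± 2.84 in wild type. For all protein-coding genes the start was covered at 31.2% ± 3.65 in knockout and 13.3% ± 1.12 in wild type. At 1000 bp upstream all genes stood at 4.37% in knockout and 1.77% in wild type, where cover at histone genes includes that of their close neighbours. Within 500 bp of the start, 22 members had a peak in all 6 libraries, 5 in the knockout alone and 0 in the wild type alone. No share over all genes is given for this rule. The 5 were H2ac22, H2bc22, H2bc8, H3c10 and H4c12, and only 3 of them were knockout-only by gene ends.

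**Figure D4:**
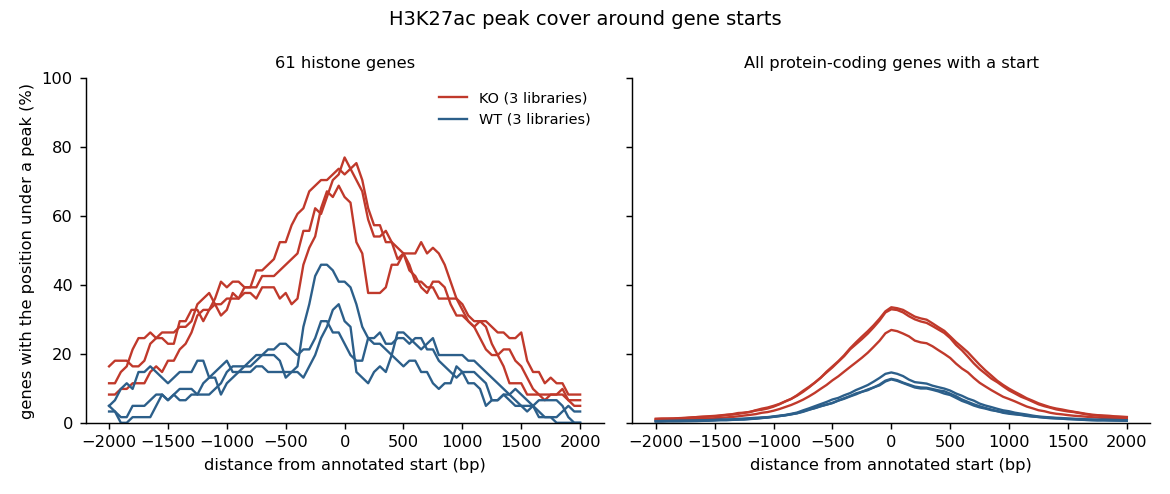
Lines give the percentage of genes whose position at each distance from the annotated start (bp, downstream positive) lies under a peak, 1 line per library, knockout (KO, red) and wild type (WT, blue). At the start the 61 histone genes (left) reach 71.6% in knockout and 31.1% in wild type on average, and all protein-coding genes (right) 31.2% and 13.3%.

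The best-ranked members marked in every library came from all 5 families. Ranking each library's peaks by p-value, with 0% the best, the member whose weakest library ranked best was H2ac24, at 6.21%. The best peak in its window held 40, 31 and 46 fragments at the summit in knockout libraries 1 to 3 and 15, 19 and 14 in wild-type libraries 1 to 3. These peaks were not all at 1 site. In knockout library 2 the peak was chr13:21834231-21835131. In wild-type library 2 it was chr13:21832084-21832613, which was also the best peak of H4c18. The H2ac24 promoter, which not all of these peaks cover, shares 74.7% of its 36-base words with another member, so reads there may be placed at either copy. All 3 knockout values exceeded the wild-type ones.

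H2ac20, H2ac21 and H2bc21, an H2A and H2B group on chromosome 3, shared 1 peak. Its summit held 34, 24 and 35 fragments in knockout and 11, 15 and 16 in wild-type libraries, over a local background of 6.24, 4.22 and 7.18 in knockout and 1.82, 2.30 and 1.94 in wild type. Because the background differed as well, the authors' fold was alike, at 4.83, 4.79 and 4.40 in knockout and 4.26, 4.85 and 5.78 in wild type. The fold thus overlapped between genotypes while the fragments did not.

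H1f2, a somatic linker histone, had 39, 23 and 35 fragments at its summit in knockout and 18, 12 and 12 in wild-type libraries. Peaks covered 1961, 2100 and 2096 bp around its ends in knockout and 787, 1423 and 1222 bp in wild type. Both measures separated the groups without overlap. H2bc9 (H2B) and H3c7 (H3) lay in 1 domain, and the H3c7 summit held 45, 26 and 41 fragments in knockout and 13, 12 and 13 in wild-type libraries. H4c14, the H4 gene of chromosome 3, had 35, 18 and 30 fragments in knockout and 15, 14 and 12 in wild type.

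At the lower end of the members marked in all 6 libraries, H4c17 was covered over 1079, 1261 and 1652 bp in knockout and 200, 574 and 578 bp in wild-type libraries. H4c9, also an H4 gene, was covered over 1293, 946 and 1404 bp in knockout and 428, 353 and 337 bp in wild type. Its best wild-type peaks held 9, 7 and 5 fragments, with q-values of 0.0937, 1 and 1, so its wild-type calls rest on few fragments.

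The knockout-only members were 1 H1, 2 H2A, 1 H2B and 1 H4 gene. The divergent pair H2ac22 and H2bc22 had summits of 24, 14 and 31 fragments in knockout libraries 1 to 3, over local backgrounds of 6.82, 4.24 and 7.78, with no peak listed in wild type. The q-values were 0.00013, 0.0405 and 2.77e-07. H4c12 had 17, 15 and 24 fragments with q-values of 0.13, 0.0264 and 0.00206, and H2ac8 had 22, 24 and 26 with q-values of 0.244, 0.000385 and 0.0544. H4c12 and H2ac8 thus each had at least 1 knockout peak above a q-value of 0.05. The H2ac8 call also joined 2 sites. The peak of knockout library 1 was chr13:23571868-23572252, and those of knockout libraries 2 and 3 lay apart from it, within chr13:23571143-23571699. A gene with no wild-type peak is one where no peak passed the caller's threshold, and the level below it was not analysed here.

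H1f6, the testis linker histone, was knockout-only through its neighbour. The peak at H4c3, an H4 gene, was 1082, 1097 and 1249 bp wide in knockout and 492, 793 and 614 bp wide in wild-type libraries. It overlapped the H1f6 window by 10, 29 and 163 bp in the knockout and did not reach it in wild type. From the H1f6 start the nearest peak edge was 1725, 1706 and 1572 bp away in knockout and 2028, 2012 and 1860 bp in wild type. No peak covered the H1f6 promoter printed above in any library, although it holds the same H1 box and CCAAT letters as H1f2. H4c3 itself was marked in all 6 libraries.

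H2bc1 and H2ac1, a divergent pair that encodes the testis H2B and H2A, were the 2 members with no peak in any library. Other sparse members were H3c11, marked in wild-type library 2 alone, H4c2, H1f1 and H2bu2, marked in knockout library 1 alone, and H4c4, marked in knockout libraries 1 and 2. These were chosen after their values were seen. H2aw on chromosome 11 was covered over 1228, 998 and 1001 bp in knockout and 0, 326 and 0 bp in wild-type libraries.

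Histone peaks sat on a raised local background. Among the 32 members marked in all 6 libraries, the median summit pileup was 34, 21 and 35 fragments in knockout and 11, 12 and 12 in wild-type libraries. For the 3712 protein-coding genes marked in all 6 it was 22, 15 and 25 in knockout and 7, 8 and 7 in wild type. The caller's local background at the members' summits was 10.5, 9.42 and 9.67 times the genome background in knockout and 3.65, 4.01 and 3.92 times in wild type. For all such genes it was 4.47, 4.43 and 4.50 times in knockout and 1.92, 1.88 and 1.89 times in wild type.

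Knockout library 2, whose genome background lay below all 3 wild-type libraries, had 21 fragments at the median member, and the wild-type libraries 11 to 12. The part of depth in these values was not tested. The median fold of the same peaks overlapped between genotypes, at 3.86, 3.69 and 3.98 in knockout and 4.39, 3.77 and 4.07 in wild type. For all 3712 genes the median fold was 5.20, 4.94 and 5.31 in knockout and 4.02, 4.12 and 4.04 in wild type. These medians describe genes selected for having a peak in every library. No label states the width of the caller's local window.

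**Figure D5:**
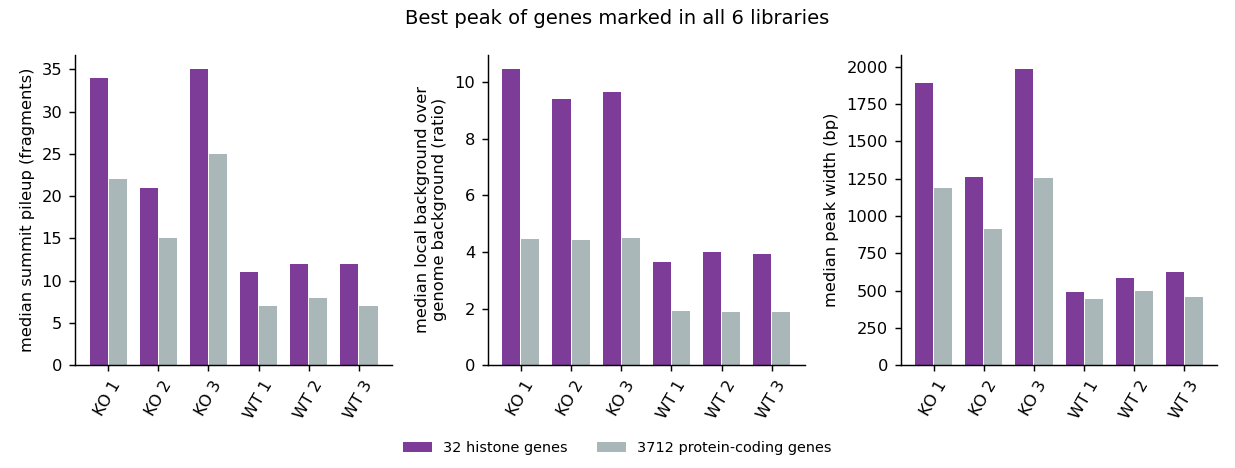
Bars give, for each library (knockout, KO, left of wild type, WT), the median over the best peaks of genes marked in all 6 libraries, for 32 histone genes (purple) and 3712 protein-coding genes (grey), of summit pileup in fragments, local over genome background as a ratio, and peak width in bp. The local background of histone genes is 9.42 to 10.5 times the genome value in knockout and 3.65 to 4.01 times in wild type.

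Near-identical copies limit single-gene calls. Of 61 member promoters, 14 shared at least one 36-base word with another member's promoter and 10 shared over 50% of them. These 10 were H3c14 and H3c15, H2ac18 and H2ac19, H4c17 and H4c18, H2bc23 and H4bc24, and H2ac23 and H2ac24. No label states how reads that fit several places were treated, so values at these genes are uncertain. All of them but H4c18 were marked in all 6 libraries, and none was knockout-only. Leaving them out therefore could not change the knockout-only count of 5. The count marked in all 6 libraries was then 23 of 56. The knockout-only member H4c12 shares 21.9% of its words with H4c11 and was kept.

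The genes that regulate and process histone mRNA were also widely marked. Of 29 such genes, 28, 29 and 29 were marked in knockout and 24, 19 and 17 in wild-type libraries (98.9% and 69.0%, beside 42.0% and 27.5% of all genes), with 12 marked in all 6. Slbp, the stem-loop binding protein, was marked in all 6 libraries with knockout peaks among the best 1.60% of each list. Npat, Hinfp (the H4 site II factor) and Casp8ap2 were each marked in 3 knockout and 2 wild-type libraries. Lsm11 (a U7 snRNP subunit), Coil (coilin) and Sympk (symplekin, a cleavage factor scaffold) were marked in the knockout alone, 10.3% of the list, beside 4.10% of all protein-coding genes and 8.10% of those marked in any library. At a q-value of at most 0.05 Coil was still marked in the knockout alone, while Lsm11 kept a peak in 1 and Sympk in 2 knockout libraries. Some of these windows overlap those of other genes: Slbp with Tmem129, Npat with Atm, Lsm11 with Thg1l, and Sympk with Foxa3 and Rsph6a. Peaks there may belong to the neighbour.

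Among 21 replication-independent histones and chaperones, 16, 18 and 17 were marked in knockout and 15, 10 and 10 in wild-type libraries. These were 81.0% and 55.6%, beside 42.0% and 27.5% of all genes. H2az2 and H3f3a, which encode variants of H2A and H3, were marked in all 6 libraries. Asf1b, a histone H3-H4 chaperone, and Cabin1, a subunit of the HIRA chaperone complex, were marked in the knockout alone, 9.52% of the list and 11.1% of its genes marked in any library, beside the same 4.10% and 8.10%. H1f0, H1f10 and Macroh2a2 had no peak in any library. Of 10 other protein-coding genes lying inside the clusters, 5, 3 and 5 were marked in knockout and 2, 4 and 1 in wild-type libraries. These shares, 43.3% and 23.3%, were near the 42.0% and 27.5% of all genes. Among the 10, Trim17 shares its window and a merged domain with H2aw. No peak in any library was found at 5 of the 10 (Pom121l2, Trim38, Slc17a1, Slc17a2 and Slc17a3).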

How the data were processed

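H3K27ac CUT&RUN peak lists from 3 Ppp2ca knockout and 3 wild-type libraries were analysed. The submitters' processing notes name GRCm38/mm10, MACS2 and BWA, beside Trimmomatic, HOMER, deepTools and ChIPseeker, without versions or parameters, and no label mentions a control library. Each deposited file holds, per peak, the fold enrichment (a ratio over the caller's background), the −log10 p-value and the −log10 q-value, 1 list per library with replicates not pooled. All 3 are the authors' values and depend on depth, which the lists do not state. The lowest −log10 p-value was 2.005 to 2.006 in all lists.

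From these, whole-number summit pileups and backgrounds were solved. For the values over whole lists the tolerance was 0.002, with −log10 p-values under 15. Values of single members were solved with a wider tolerance and no p-value limit. Members and gene lists followed written rules, as did most named genes, and the members and lists were chosen with earlier results of these data known. Named genes were up to 8 knockout-only members, up to 8 best and the 2 lowest ranked members marked in all 6 libraries, and, per other list, up to 4 members of one genotype alone or else 2 marked in all 6. Other genes, among them Slbp, Npat, Hinfp, Casp8ap2, H2az2, H3f3a, H4c3 and H2aw, were named outside these rules. Covered length at gene ends, start-based marking, pileup medians, divergent pairs, promoter copies and tRNA counts were chosen after the data were seen. Clusters were gene groups separated by over 500 kb. Covered base pairs were compared by a two-sided exact permutation test. Marking and coverage were tested on simulated data. Gene positions, starts and sequences are RefSeq's (GRCm38.p6). Python 3.11.15, pandas 2.3.3, numpy 2.4.6 and scipy 1.17.1 were used. Alternatives were q-value limits, equal list lengths, other windows, overlap rules, cluster edges, leaving out libraries and a replicate block. Exon, intron and UTR positions were not used. One marker gene is not reported here.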

Additional observations from a re-analysis of the deposited data

How the results depend on the processing

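The difference in marked members and the covered base pairs of the 4 clusters kept their direction, knockout above wild type, under every alternative run except cover per Mb of all covered bases. Of single genes, H2bc21 and H4c17, marked in all 6 libraries, had 1 knockout library fewer than wild type with summits in the window (a difference in shares of -0.333). As cover per Mb of all covered bases, chromosome 3 turned round (-144.8 bp, knockout minus wild type), and the second cluster of chromosome 13 differed by 4.95 bp. The difference in marked members (14.67) moved to 30.67 at a q-value of at most 0.05, 28 at −log10 q-value of at least 5, 7.33 with a 5 kb window and 9.67 with summits in the window. At a q-value of at most 0.05 the difference of 30.67 moved to 27.67 with a 5 kb window, 24.33 with summits in the window and 28 within 500 bp of the annotated start, the last chosen after seeing the data. The knockout-only count of 5 was 18 at a q-value of at most 0.05, 3 with equal numbers of best peaks and 0 with a 5 kb window. Of the 5 genes, 3 were among those 18, and 0 were among the 5 found at −log10 q-value of at least 5. H1f6 left the list when 100 bp of overlap was required. The count marked in all 6 libraries (32) was 21 at a q-value of at most 0.05 and 0 at −log10 q-value of at least 5. Leaving out 1 library at a time gave 13.17 to 17.17 for the difference, 5 to 7 knockout-only members and 32 to 42 members marked in all remaining libraries. The cause of these changes was not tested. Same-numbered libraries did not deviate together in these peak lists (correlations of 0.0168, 0.00692 and -0.00193). No label states a pairing, and whether same-numbered libraries were handled together cannot be told from this. With the replicate block the mean difference was 14.67 members, 30.67 at a q-value of at most 0.05, 4483 bp on chromosome 3, 1041 bp on chromosome 11, and 17090 and 15872 bp in the first and second cluster of chromosome 13, with exact p = 0.25 for each cluster, the smallest that 3 pairs allow. The median summit pileup over all peaks was 6, 6 and 9 fragments in knockout and 5, 5 and 5 in wild-type libraries.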

Other observations

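Transfer RNA genes lie between the histone genes. In the first cluster of chromosome 13, 26 of 42 merged domains did not reach within 1 kb of a histone gene end. Of 32 tRNA genes inside the 4 clusters, 13, 11 and 14 had a peak within 1 kb of either end in knockout libraries 1 to 3 and 6, 7 and 3 in wild-type libraries 1 to 3, or 39.6% and 16.7%. For 408 tRNA genes of the main chromosomes the shares were 36.9% in knockout and 20.5% in wild type. The tRNA genes n-TLcaa2, n-TDgtc12 and n-TSaga8 were marked in the knockout alone, 9.38% of those inside the clusters, beside 5.88% of the 408. Of these, n-TDgtc12 and n-TSaga8 were marked by the same domain, chr13:21940555-21941119, so they count 1 site 2 times.

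Of the 4 domains present in all 6 libraries without a histone gene end, chr13:21974146-21975149 held the tRNA gene n-TMcat8 and was covered over 975, 946 and 966 bp in knockout and 794, 600 and 653 bp in wild-type libraries. Another, chr13:22020096-22022580, held n-TRacg1 and n-TScga1 and was covered over 562, 808 and 1578 bp in knockout and 324, 214 and 656 bp in wild type. The next, chr13:21850657-21853331, held no gene of the table and was covered over 2510, 1746 and 2101 bp in knockout and 752, 1210 and 565 bp in wild type. The last, chr13:23584946-23586921, lay over a second RefSeq start of H2bc6 at position 23585970, which the gene-end windows do not reach, and was covered over 1749, 1191 and 1937 bp in knockout and 899, 1180 and 888 bp in wild type. H2bc6, an H2B gene, was already marked in all 6 libraries at its other start.

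The histone pseudogene H2bu1-ps had a peak in the 3 knockout libraries and in wild-type library 2, where its window overlaps that of H2aw, and the pseudogene H2ac14 in the 3 knockout libraries and in wild-type libraries 1 and 3. The pseudogene H2ac5-ps, next to H3c3 and H2bc3, had one in all 6 libraries.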
